A study of Mus musculus with 10 samples.

Results

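The mRNAs described here encode the subunits of the mitochondrial respiratory chain and ATP synthase. They were chosen by gene symbol, as all rows that match the naming patterns of the mitochondrially encoded genes and of the nuclear subunit families of complexes I to IV and ATP synthase. This gave 93 of the 22329 genes in the table, with 13 encoded in mitochondrial DNA and 80 in nuclear DNA. Cox4i1, a nuclear subunit of complex IV, is not analysed here.

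The question was how the mRNA of a tumour differed one week after a cytokine treatment. All 10 tumours arose from cells of the mouse melanoma line B16F10 placed under the skin of C57BL6/J mice, so every tumour comes from 1 line. In 5 tumours, 80 µg of a cytokine mRNA mixture was injected once into the tumour, with 20 µg each of 4 mRNAs encoding murine single-chain IL-12, IL-15sushi, GM-CSF and IFNalpha. In the other 5 tumours 80 µg of luciferase mRNA, a control with no immune function in the mouse, was injected in the same way. Whole tumours were collected on day 7, so every value mixes tumour cells with host cells, and fewer cells of a type cannot be told apart from less RNA per cell. No sex or age of the mice is given in the sources used here. Values are TPM, the share of a library taken by a transcript corrected for its length and scaled to 1000000 per library. The sequencing depth is unknown. Tumours are numbered as in their titles, with 6 to 10 for cytokine mRNA and 1 to 5 for luciferase mRNA, and values are listed in that order.

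The respiratory chain passes electrons from NADH and succinate to oxygen through complexes I, II, III and IV, and pumps protons across the inner mitochondrial membrane. ATP synthase, also called complex V, uses the return of these protons to make ATP. Its parts come from 2 genomes: core subunits of complexes I, III, IV and V are made inside the organelle from the circular mitochondrial DNA, and all others, complex II included, are made from nuclear genes and imported. The mitochondrial mRNAs are cut from long transcripts of each strand, with all but mt-Nd6 on 1 strand, whereas each nuclear gene has its own promoter. B16F10 cells both ferment glucose and respire.

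Of the 13 mitochondrially encoded mRNAs, 7 were listed above 0 in every library and 6 were listed at 0 in all 10 libraries. The 6 were mt-Co2 and mt-Co3 of complex IV, mt-Atp6 and mt-Atp8 of ATP synthase, and mt-Nd3 and mt-Nd4l of complex I. Since these genes lie on the same long transcripts as abundant neighbours, their sequences were compared with all other annotated transcripts. In 5 of the 6, from 98.0% (mt-Nd3) to 99.9% (mt-Co3) of the 50-base windows recurred in the transcript of 1 other gene, in each case an unprocessed pseudogene on mouse chromosome 1. For the sixth gene, mt-Atp8, the share was 0.0%, but only annotated transcripts were searched. On mitochondrial DNA mt-Atp8 begins between mt-Co2 and mt-Atp6. On chromosome 1 the copy of mt-Atp6, Gm10925, ends at base 24614651 and that of mt-Co2, Gm28661, starts at base 24614885. The sequence between these copies is in neither transcript and was not searched, so a copy of mt-Atp8 there would not be seen. In the 7 mRNAs above 0 the share was 62.2% in mt-Nd4, 51.1% in mt-Co1, 8.2% in mt-Nd2, 7.6% in mt-Nd5, and 0.0% in mt-Cytb, mt-Nd1 and mt-Nd6. None of the chromosome 1 pseudogenes named here is a row of the table. The part of shared sequence in the zeros was not tested, and how reads with several matches were treated is not given in the sources used here. No statement on the tumours is made from these 6 genes.

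3 stretches are printed as examples, from GENCODE M21 transcripts in GRCm38. They are the whole of mt-Nd4l (chrM:9877-10173, plus strand), which was listed at 0, the end of the shared stretch of mt-Nd4 (chrM:10983-11102, plus strand), which was above 0, and the whole of mt-Atp8 (chrM:7766-7969, plus strand), which was at 0. Capitals mark bases inside a 50-base window that recurs in the pseudogene Gm10222 for mt-Nd4l or Gm28439 for mt-Nd4.
mt-Nd4l: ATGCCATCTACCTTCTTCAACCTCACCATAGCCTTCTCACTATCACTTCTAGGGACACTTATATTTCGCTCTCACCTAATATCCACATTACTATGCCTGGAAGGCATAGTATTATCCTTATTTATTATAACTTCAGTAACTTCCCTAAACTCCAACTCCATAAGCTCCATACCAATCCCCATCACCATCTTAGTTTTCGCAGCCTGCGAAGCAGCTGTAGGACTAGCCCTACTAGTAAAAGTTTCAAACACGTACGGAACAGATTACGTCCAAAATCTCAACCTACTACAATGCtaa
mt-Nd4: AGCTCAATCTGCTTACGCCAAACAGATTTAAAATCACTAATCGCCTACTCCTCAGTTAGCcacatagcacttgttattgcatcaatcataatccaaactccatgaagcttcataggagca
mt-Atp8: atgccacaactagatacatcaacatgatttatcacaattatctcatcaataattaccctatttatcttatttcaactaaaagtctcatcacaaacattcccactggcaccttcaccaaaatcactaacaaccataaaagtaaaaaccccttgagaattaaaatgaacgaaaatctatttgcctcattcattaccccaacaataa
The capitals cover 294 of the 297 bases of mt-Nd4l and none of mt-Atp8. In mt-Nd4, the shared stretch ends at base 876 of 1378, and the rest holds no shared window.

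**Figure D1:**
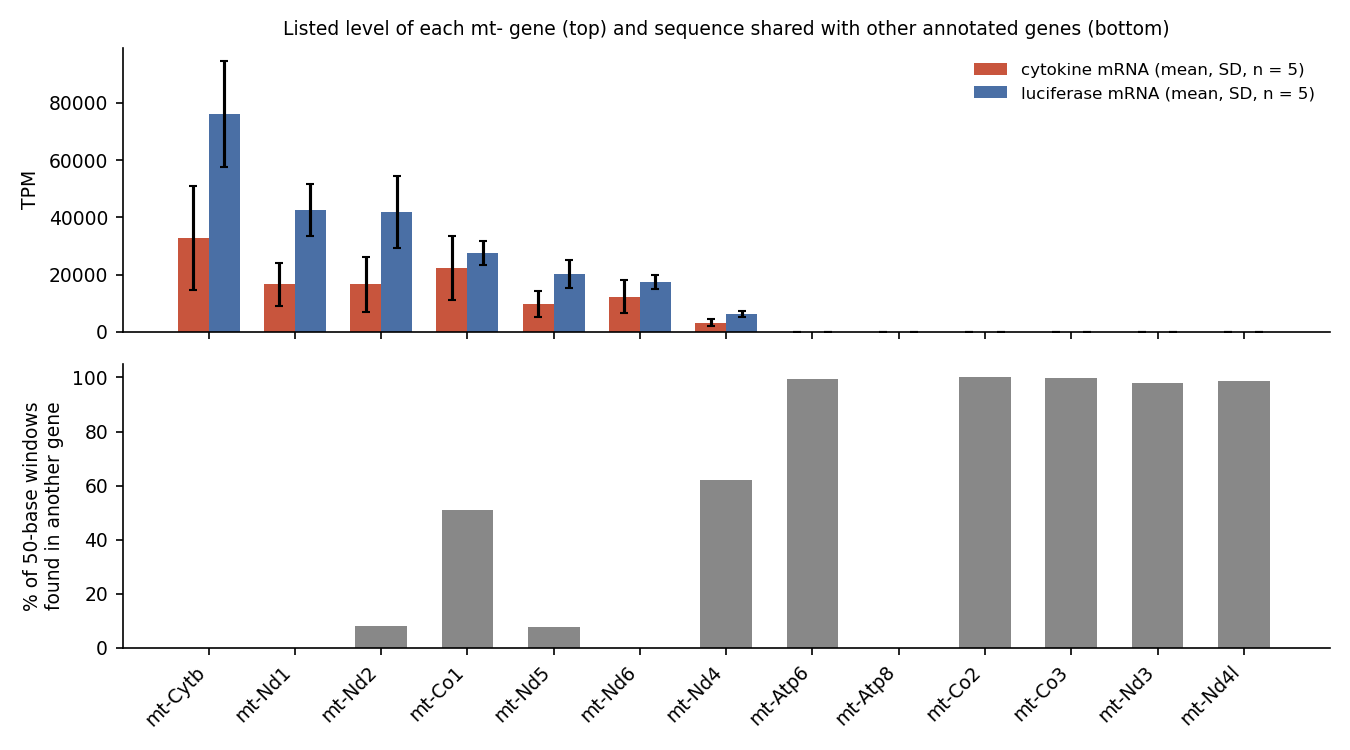
Each mitochondrially encoded gene is shown with its mean TPM in cytokine mRNA (left bar) and luciferase mRNA tumours (right bar), with SD over 5 tumours each, above the percent of its 50-base windows found in another annotated gene. The 5 genes with 98.0% or more shared windows are at 0, and so is mt-Atp8 with 0.0%. Genome sequence outside annotated transcripts was not searched.

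The promoters of the nuclear members were searched for 3 motifs, which the choice by symbol did not use. Promoter windows from RefSeq (GRCm38.p6), 250 bases before to 50 after each gene's start, were available for 66 of the 80 nuclear members. A gene counted once if any of its windows held the motif on either strand, so a gene with several windows had more chances to match. The NRF1 motif (GCGCA, any base, then GCGC) is bound by a regulator of nuclear genes for mitochondrial proteins. It was found in 25.8% of these members, against 11.5% of the 9654 tested genes with a window and 5.19% of all 27025 genes with a window. The YY1 motif AAGATGGC was found in 13.6% of members, 5.3% of tested genes and 3.19% of all genes. The ETS motif CCGGAAG, bound by GABP among others, was found in 24.2% of members, 20.0% of tested genes and 9.93% of all genes. The 3 motifs do not contain one another, and a match is a description of the letters only. The windows are given for the 1 nuclear member that was called and for the complex I gene with the most positive change, Ndufa3 (chr7:3617123-3617422, plus strand) and Ndufa6 (chr15:82354242-82354541, minus strand), with the motif match in capitals.
Ndufa3: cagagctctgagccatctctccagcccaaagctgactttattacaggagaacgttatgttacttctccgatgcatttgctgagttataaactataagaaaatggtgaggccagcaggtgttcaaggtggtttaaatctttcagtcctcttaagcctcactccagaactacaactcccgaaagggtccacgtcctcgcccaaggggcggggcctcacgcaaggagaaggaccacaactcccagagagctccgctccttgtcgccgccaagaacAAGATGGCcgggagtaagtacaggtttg
Ndufa6: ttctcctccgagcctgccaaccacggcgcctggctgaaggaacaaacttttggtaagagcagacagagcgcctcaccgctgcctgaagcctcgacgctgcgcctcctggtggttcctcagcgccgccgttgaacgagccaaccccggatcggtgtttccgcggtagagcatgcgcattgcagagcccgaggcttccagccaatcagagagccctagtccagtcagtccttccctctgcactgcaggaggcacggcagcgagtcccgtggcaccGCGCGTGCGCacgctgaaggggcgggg
Ndufa3 holds the YY1 motif and Ndufa6 the NRF1 motif.

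The mitochondrially encoded mRNAs took a smaller part of the library in the cytokine mRNA tumours, and the summed nuclear members differed by less. Summed over the 7 genes above 0, they made up 11.6%, 4.44%, 8.22%, 13.1% and 19.2% of TPM in cytokine mRNA tumours, against 16.2%, 21.97%, 26.4%, 23.4% and 27.9% in luciferase mRNA tumours. The groups overlapped only through cytokine tumour 10, which lay above luciferase tumour 1. The group means were 11.3% ± 5.54 with cytokine mRNA and 23.2% ± 4.57 with luciferase mRNA (SD, n = 5 each).

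The 80 nuclear members together made up 2.18%, 2.15%, 1.87%, 2.46% and 2.73% of TPM in cytokine mRNA tumours and 2.51%, 2.85%, 2.70%, 2.56% and 2.98% in luciferase mRNA tumours. Cytokine tumours 6 to 9 lay below all luciferase tumours and cytokine tumour 10 lay among them. Because TPM are shares, a smaller mitochondrial sum raises all other values. Outside the mitochondrial rows, the nuclear members made up 2.46%, 2.25%, 2.04%, 2.83% and 3.37% in cytokine mRNA tumours, against 2.996%, 3.65%, 3.67%, 3.34% and 4.14% in luciferase mRNA tumours, and the groups overlapped through tumour 10 here too.

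The ratio of mitochondrial to nuclear mRNA does not depend on how a library is scaled. It was 5.35, 2.06, 4.39, 5.33 and 7.05 in cytokine mRNA tumours, against 6.44, 7.71, 9.78, 9.16 and 9.35 in luciferase mRNA tumours, with means of 4.84 ± 1.82 with cytokine mRNA and 8.49 ± 1.38 with luciferase mRNA (SD, n = 5 each). On the log2 scale the mean difference, cytokine minus luciferase, was -0.90, and it was -1.07 without cytokine tumour 10 and -0.62 without cytokine tumour 7. Luciferase tumour 1 had the lowest ratio of its group and cytokine tumour 7 the lowest of all.

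**Figure D2:**
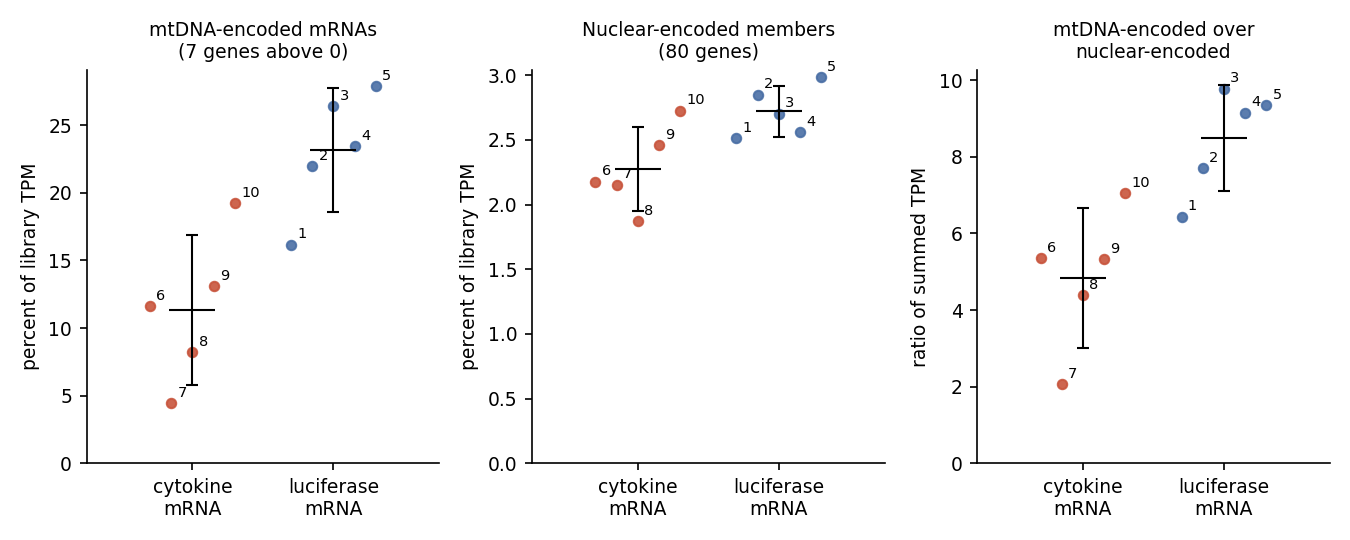
Summed mitochondrially encoded mRNA, summed nuclear members (both in percent of library TPM) and their ratio in each tumour, with cytokine mRNA on the left and luciferase mRNA on the right of each panel. Points are tumours with their numbers, and bars give mean and SD (n = 5 each); the ratio spans 2.06 to 7.05 with cytokine mRNA and 6.44 to 9.78 with luciferase mRNA.

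The split by complex followed the mitochondrial genes present. In complex I the ratio of mitochondrial to nuclear mRNA was 8.99, 3.28, 8.01, 8.65 and 11.2 in cytokine mRNA tumours and 11.1, 12.7, 17.0, 14.9 and 16.2 in luciferase mRNA tumours. In complex III it was 17.1, 9.64, 12.4, 14.4 and 23.9 in cytokine mRNA tumours and 19.2, 26.3, 32.0, 33.2 and 32.6 in luciferase mRNA tumours. In both complexes tumour 10 was the only cytokine tumour within the luciferase range.

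Complex IV differed from these. Its ratio was 3.91, 1.05, 2.80, 4.06 and 4.33 in cytokine mRNA tumours, against 3.16, 3.56, 3.40, 3.57 and 3.74 in luciferase mRNA tumours, so 3 cytokine tumours lay above the whole luciferase group and the other 2 below it. Only mt-Co1 enters on the mitochondrial side there. Complex II has no mitochondrially encoded subunit, and both mitochondrial genes of ATP synthase were listed at 0, so no ratio is given for either.

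Gene by gene, differences were tested with limma on log2(TPM + 1) over the 12497 genes that reached a TPM of 1 in 5 or more libraries, and a gene was called at a Benjamini-Hochberg adjusted p under 0.05 over all of them. All 7 mitochondrially encoded genes above 0 and 77 of the 80 nuclear members passed this filter. None of the 7 mitochondrial genes and 1 of the 77 nuclear members was called, against 10.4% of all genes tested (3.02% lower and 7.41% higher). Over all genes, 926 rose and 378 fell, and after dividing by the total without the mitochondrial rows 825 rose and 901 fell. At an unadjusted p under 0.05 there were 5 mitochondrial and 18 nuclear members, and 3813 of all genes tested. Groups did not overlap in 6 of the 84 tested members, all lower with cytokine mRNA, which is 7.14% beside 9.23% of all genes tested (3.78% lower and 5.45% higher).

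The median log2 change, cytokine minus luciferase, was -1.21 for the 7 mitochondrial genes, all of them negative. For the 77 nuclear members it was -0.29, with 57 negative and 20 positive, and for all genes tested it was -0.18. A median-ratio scaling moved the median of all genes to -0.03 and that of the nuclear members to -0.13, and dividing by the total without the mitochondrial rows moved them to -0.37 and -0.50. Relative to the median of all genes the nuclear members thus lay at -0.12, -0.10 and -0.13 under the 3 scalings. The mitochondrial genes lay at -1.03 and -1.01 under the first 2.

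**Figure D3:**
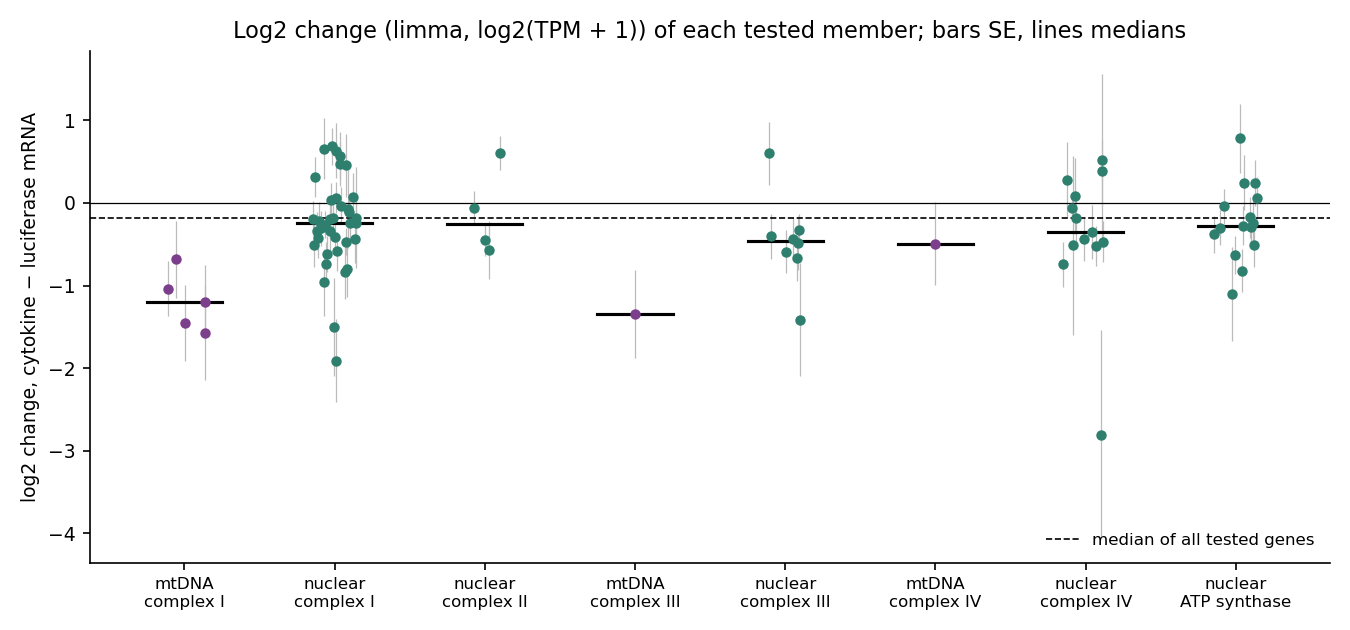
Log2 change (cytokine minus luciferase mRNA, limma on log2(TPM + 1)) of the 84 tested members by genome of origin and complex; points are genes with their SE, short lines are medians and the dashed line is the median of all tested genes at -0.18. The 7 mitochondrially encoded genes are at -0.49 or lower, and the nuclear medians lie between -0.46 in complex III and -0.24 in complex I.

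Of the complex I subunits encoded in mitochondrial DNA, 5 were above 0. mt-Nd1, part of the membrane arm beside the quinone site, was at 15701, 8447, 11688, 18556 and 28162 TPM in cytokine mRNA tumours, against 26387, 45463, 46296, 45875 and 48905 TPM in luciferase mRNA tumours. Only cytokine tumour 10 exceeded a luciferase tumour, the low tumour 1. The log2 change was -1.45 ± 0.46 (SE), with a limma adjusted p of 0.0645. For mt-Nd2, a proton-pumping subunit, the values were 16380, 3636, 13731, 18795 and 30415 TPM in cytokine mRNA tumours and 28473, 37486, 60989, 35863 and 46520 TPM in luciferase mRNA tumours. Again tumours 10 and 1 made the overlap.

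mt-Nd4, another proton-pumping subunit and the least abundant of the 7 per length, was the 1 mitochondrial gene whose groups did not overlap. It was at 4703, 2923, 1726, 2305 and 4289 TPM in cytokine mRNA tumours, against 4953, 5882, 7497, 5838 and 6739 TPM in luciferase mRNA tumours. Its log2 change was -1.04 ± 0.33 (SE; limma adjusted p = 0.0683). More of its length than of any other measured mitochondrial gene is shared with a pseudogene.

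mt-Nd5, the outermost proton-pumping subunit, was at 10880, 3548, 6621, 11752 and 15155 TPM in cytokine mRNA tumours and at 13512, 17701, 23396, 20426 and 25947 TPM in luciferase mRNA tumours. mt-Nd6, which is encoded on the opposite strand to all the others, was at 11119, 3676, 12187, 16104 and 18403 TPM in cytokine mRNA tumours and at 18316, 15231, 15463, 17153 and 21151 TPM in luciferase mRNA tumours. The change was -1.21 ± 0.45 for mt-Nd5 and -0.68 ± 0.47 for mt-Nd6 on the log2 scale (SE; limma adjusted p = 0.103 and 0.329). Without cytokine tumour 7 the change of mt-Nd6 was -0.29, and without tumours 6 and 7 it was -0.18. For mt-Nd6, 2 cytokine tumours lay inside the luciferase range, where mt-Nd5 had 1. In human cells the ND6 mRNA is known to lack a stable poly(A) tail, and poly(A) RNA was sequenced here. The library kit keeps strand, but whether the counting used it is not given in the sources used here, so RNA of the opposite strand cannot be told apart from mt-Nd6.

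mt-Cytb, the electron-carrying core of complex III, was the most abundant member, at 35141, 15272, 20085, 31814 and 61708 TPM in cytokine mRNA tumours, against 47713, 69297, 83377, 83660 and 96238 TPM in luciferase mRNA tumours. Its log2 change was -1.34 ± 0.54 (SE; limma adjusted p = 0.120). mt-Co1, the catalytic core of complex IV, was at 22538, 6880, 16138, 31560 and 34110 TPM in cytokine mRNA tumours and at 22427, 28601, 27279, 25558 and 33494 TPM in luciferase mRNA tumours. For mt-Co1 the groups overlapped through 3 cytokine tumours, and its log2 change of -0.49 ± 0.50 (SE; limma adjusted p = 0.511) was the smallest of the 7. Without cytokine tumour 7 it was -0.12, and without tumours 6 and 7 it was -0.072.

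**Figure D4:**
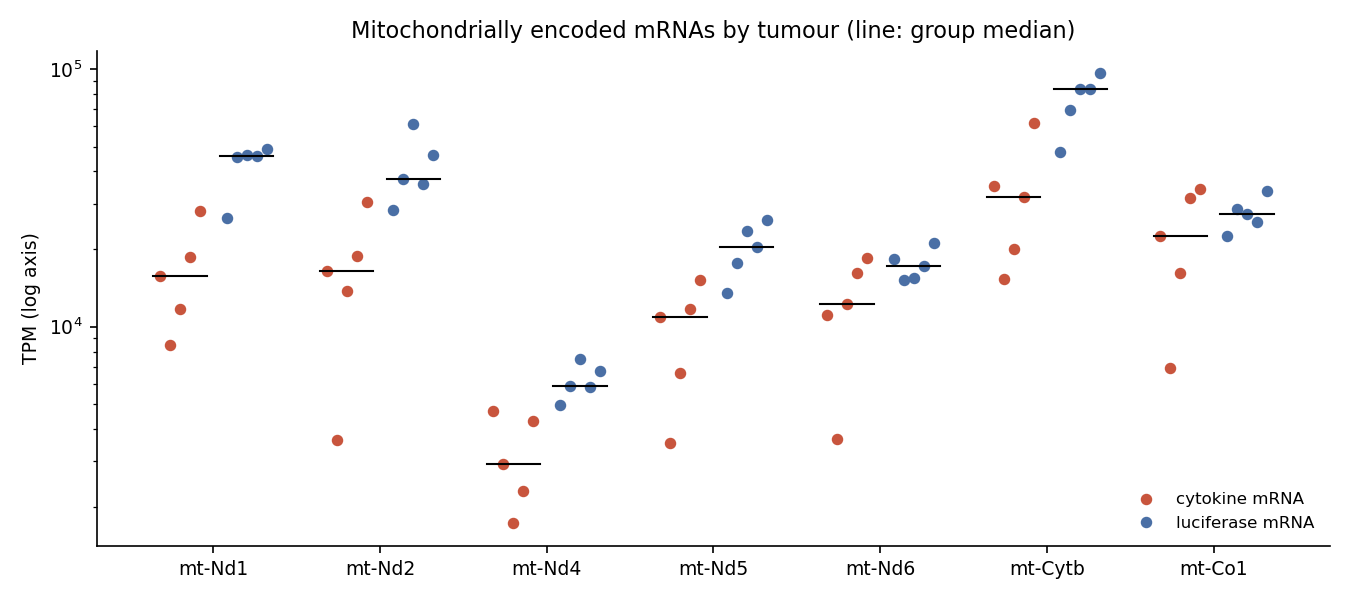
TPM (log axis) of the 7 mitochondrially encoded mRNAs above 0, with cytokine mRNA tumours to the left of luciferase mRNA tumours for each gene; points are tumours and lines are group medians. Only mt-Nd4 shows no overlap, and mt-Co1 and mt-Nd6 overlap most.

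Leaving out cytokine tumour 10 changed these calls. With the 9 remaining tumours, 5 of the 7 mitochondrial genes fell at an adjusted p under 0.05 in limma (mt-Cytb, mt-Nd1, mt-Nd2, mt-Nd4 and mt-Nd5, adjusted p from 0.0143 to 0.0363), and 17 of the 77 nuclear members were called, beside 3238 of all 12497 genes. Without any other single tumour, 0 mitochondrial genes were called. Tumour 10 also had the lowest sums of immune cell markers among the cytokine mRNA tumours. The 10 leukocyte markers summed to 3036, 6682, 3132, 2843 and 1365 TPM in cytokine mRNA tumours, against 938, 974, 858, 952 and 713 TPM in luciferase mRNA tumours, and 9 of the 10 rose.

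Markers of host and tumour cells are given beside the mitochondrial values. The 12 markers of macrophages and monocytes summed to 7473, 16417, 4300, 3942 and 916 TPM in cytokine mRNA tumours and to 554, 488, 500, 422 and 137 TPM in luciferase mRNA tumours, and 10 of 12 rose. The 12 melanocyte lineage markers, which include genes of B16F10 pigment production, summed to 21011, 1492, 11477, 31746 and 30282 TPM with cytokine mRNA and to 4715, 27087, 24299, 27794 and 23809 TPM with luciferase mRNA, with none called. Gene by gene their median log2 change was -1.76, beside -0.18 for all genes tested, and it was -0.40 without cytokine tumour 7 and -0.12 without tumours 6 and 7. Within each group the tumour with the lowest melanocyte sum, cytokine tumour 7 and luciferase tumour 1, also had the lowest mitochondrial share. Across the groups the order was not the same, since cytokine tumours 9 and 10 had the highest melanocyte sums of all tumours, with mitochondrial shares of 13.1% and 19.2%. The part of cell composition in the mitochondrial values was not tested.

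The make-up of the mitochondrial mRNA itself also differed, in a way that neither library scaling nor the total can alter. As a percent of the summed mitochondrially encoded TPM, mt-Co1 took 19.4%, 15.5%, 19.6%, 24.1% and 17.7% in cytokine mRNA tumours, against 13.9%, 13.0%, 10.3%, 10.9% and 12.01% in luciferase mRNA tumours. All 5 cytokine tumours, tumour 10 included, lay above all 5 luciferase tumours, with means of 19.3% ± 3.17 with cytokine mRNA and 12.02% ± 1.46 with luciferase mRNA (SD, n = 5 each). It was the only 1 of the 7 genes whose share did not overlap, and it is singled out here after its values were seen, without a test.

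The ratio of mt-Co1 to mt-Nd2 was 1.38, 1.89, 1.18, 1.68 and 1.12 in cytokine mRNA tumours, against 0.788, 0.763, 0.447, 0.713 and 0.720 in luciferase mRNA tumours. The ratio of mt-Co1 to mt-Nd5 was 2.07, 1.94, 2.44, 2.69 and 2.25 in cytokine mRNA tumours, against 1.66, 1.62, 1.17, 1.25 and 1.29 in luciferase mRNA tumours. Both separated the groups. The ratios of mt-Co1 to mt-Nd1, mt-Cytb, mt-Nd6 and mt-Nd4 each overlapped between the groups. Of the windows of mt-Co1, 51.1% recur in pseudogenes as given above, and the part of this in its share was not tested.

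**Figure D5:**
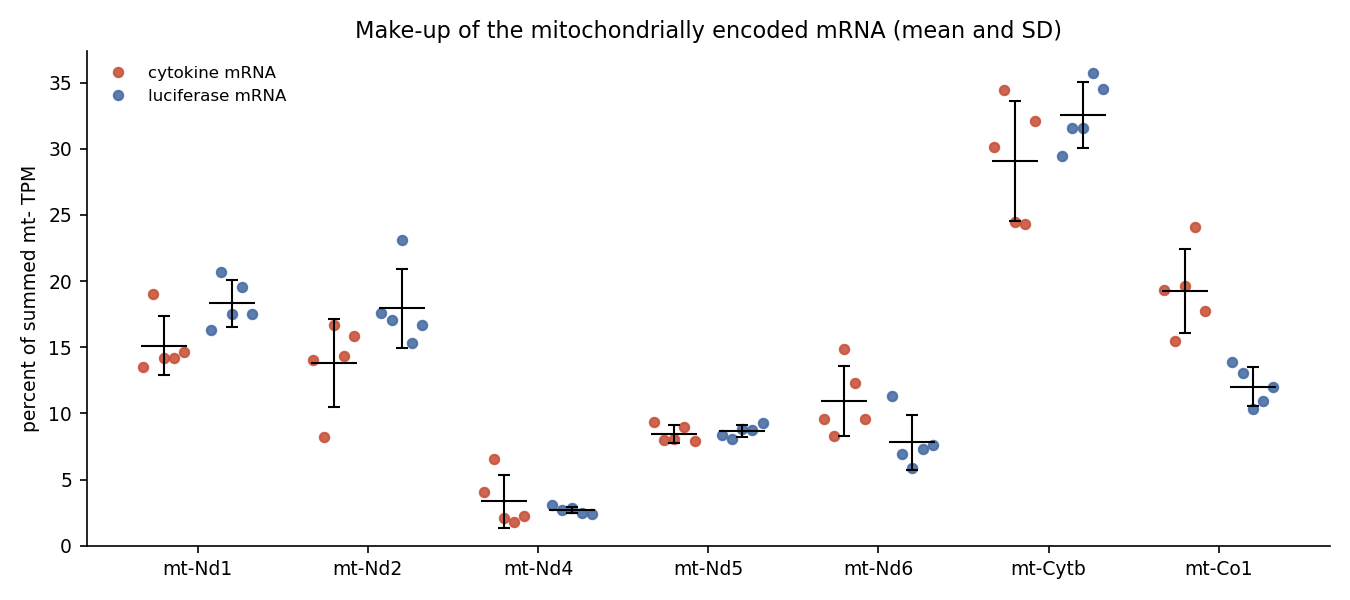
Percent of the summed mitochondrially encoded TPM taken by each of the 7 genes, with cytokine mRNA tumours to the left of luciferase mRNA tumours; points are tumours, bars mean and SD (n = 5 each). For mt-Co1 the cytokine tumours span 15.5% to 24.1% and the luciferase tumours 10.3% to 13.9%.

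Among the 37 nuclear members with complex I symbols, 1 fell, none rose and 27 had a negative change, with a median log2 change of -0.24. The gene that fell was Ndufa3, an accessory subunit of the membrane arm. It was at 169, 131, 339, 681 and 953 TPM in cytokine mRNA tumours, against 1601, 1297, 1701, 978 and 1074 TPM in luciferase mRNA tumours. All cytokine tumours lay below all luciferase tumours, though tumour 10 came close. The means were 455 ± 353 TPM with cytokine mRNA and 1330 ± 317 TPM with luciferase mRNA (SD, n = 5 each), and the log2 change was -1.91 ± 0.51 (SE; limma adjusted p = 0.0370). The call was lost without any single one of luciferase tumours 1 to 5 or cytokine tumours 6, 7 and 8, and without a filter on low values or without tumours 6 and 7 together, with adjusted p between 0.00476 and 0.115 over all alternatives. Without tumours 6 and 7 the log2 change was -1.10. Ndufa3 lies at chr7:3617373-3620327 in GRCm38, its exons overlap those of Tfpt on the opposite strand by 4 bases, and it shares no 50-base window with another gene.

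Other complex I genes did not pass the test. Ndufa6, an accessory subunit of the matrix arm with the most positive change in the complex, was at 296, 288, 203, 265 and 147 TPM in cytokine mRNA tumours, against 134, 139, 147, 167 and 136 TPM in luciferase mRNA tumours. Tumours 6 to 9 lay above the luciferase group and tumour 10 within it, and the log2 change was 0.68 ± 0.22 (SE; limma adjusted p = 0.0695). Ndufb11, an accessory subunit of the membrane arm, was at 51.8, 48.0, 50.4, 54.4 and 62.6 TPM in cytokine mRNA tumours and at 82.4, 68.6, 80.9, 71.1 and 69.2 TPM in luciferase mRNA tumours. Its groups did not overlap and its spread was small, with a log2 change of -0.47 ± 0.16 (SE; adjusted p in limma = 0.0835). In GRCm38, 117 bases of its exons overlap Rbm10 on the opposite strand, and 17.5% of its windows recur in other genes.

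Ndufa4, named for complex I and since placed in complex IV, was at 506, 285, 357, 402 and 522 TPM in cytokine mRNA tumours and at 524, 683, 623, 593 and 694 TPM in luciferase mRNA tumours. The groups did not overlap, with 521.9 TPM in the highest cytokine and 523.7 TPM in the lowest luciferase tumour, and the change on the log2 scale was -0.62 ± 0.22 (SE; limma adjusted p = 0.0857). Ndufb2 was the fourth complex I member without overlap, at 294 to 351 TPM with cytokine mRNA and 364 to 437 TPM with luciferase mRNA. Ndufv3, an accessory subunit at the NADH-binding tip, averaged 867 ± 201 TPM with cytokine mRNA and 1029 ± 235 TPM with luciferase mRNA, and the groups overlapped. Ndufa4l2, a relative of Ndufa4 that hypoxia induces, averaged 55.5 ± 32.2 TPM with cytokine mRNA and 50.3 ± 16.2 TPM with luciferase mRNA. Its log2 change was -0.07 ± 0.47 (SE) and was positive after median-ratio scaling.

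Complex II is the enzyme succinate dehydrogenase and belongs to the citric acid cycle as well. None of its 4 genes was called. Sdhc, a membrane anchor, was at 408, 399, 271, 279 and 241 TPM in cytokine mRNA tumours, against 195, 180, 208, 203 and 247 TPM in luciferase mRNA tumours. Only tumour 10 fell inside the luciferase range, and the log2 change was 0.60 ± 0.21 (SE; limma adjusted p = 0.0819). Sdhd, the other anchor, was at 78.4, 70.3, 86.0, 104.9 and 131 TPM in cytokine mRNA tumours and at 119, 127, 120, 130 and 132 TPM in luciferase mRNA tumours. Its values thus lay the opposite way from those of Sdhc, with a log2 change of -0.45 ± 0.20 (SE; adjusted p in limma = 0.152). The flavin-binding Sdha averaged 463 ± 221 TPM with cytokine mRNA and 621 ± 93.5 TPM with luciferase mRNA, and the iron-sulphur subunit Sdhb averaged 265 ± 68.4 TPM with cytokine mRNA and 269.7 ± 14.9 TPM with luciferase mRNA (SD, n = 5 each).

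None of the 8 nuclear genes of complex III was called, and 7 had a negative change, with a median of -0.46. Uqcrc1, a core subunit facing the matrix, was at 5.87, 9.03, 53.8, 79.3 and 93.1 TPM in cytokine mRNA tumours, against 106, 74.1, 72.1, 69.3 and 91.3 TPM in luciferase mRNA tumours. Tumours 6 and 7 were far below the rest, tumour 8 was below all luciferase tumours, and tumours 9 and 10 were within their range. The log2 change was -1.41 ± 0.68 (SE; limma adjusted p = 0.184), and -0.15 without tumours 6 and 7. The small subunit Uqcr10 averaged 652 ± 217 TPM with cytokine mRNA and 941 ± 98.3 TPM with luciferase mRNA (limma adjusted p = 0.151). Uqcr11, also small, averaged 127 ± 50.3 TPM with cytokine mRNA and 191 ± 24.7 TPM with luciferase mRNA (limma adjusted p = 0.128). Uqcrq, another small subunit, averaged 605 ± 111 TPM with cytokine mRNA and 749 ± 63.5 TPM with luciferase mRNA. Uqcrb, which helps to form the quinone site, had the 1 positive change, and was at 184, 197, 49.3, 86.0 and 86.2 TPM in cytokine mRNA tumours, against 52.4, 85.3, 50.8, 70.2 and 102 TPM in luciferase mRNA tumours. Here too tumours 6 and 7 stood apart, above the others, and its log2 change of 0.60 was 0.040 without them. For Uqcrb 43.4% of windows recur in other genes.

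Complex IV had 13 tested nuclear members, with none called and a median log2 change of -0.36. Cox7c, a small subunit, had the most negative change of all members, and was at 14.7, 0.00, 97.1, 191 and 290 TPM in cytokine mRNA tumours, against 209, 282, 287, 251 and 336 TPM in luciferase mRNA tumours. Tumours 6 and 7 were again far below the others, and the log2 change of -2.81 ± 1.27 (SE; limma adjusted p = 0.160) was -0.62 without them. For Cox7c 27.9% of windows recur in other genes. Cox7a2, the subunit form of most tissues, was at 777, 724, 822, 1470 and 1504 TPM in cytokine mRNA tumours and at 1622, 1608, 1604, 1572 and 2039 TPM in luciferase mRNA tumours. Its groups did not overlap, with a log2 change of -0.74 ± 0.27 (SE; adjusted p in limma = 0.0952). Cox7b averaged 288 ± 91.1 TPM with cytokine mRNA and 402 ± 61.8 TPM with luciferase mRNA, and Cox6c averaged 1287 ± 389 TPM with cytokine mRNA and 1684 ± 159 TPM with luciferase mRNA (SD, n = 5 each). Cox7a2l, which helps to join complexes III and IV, averaged 61.9 ± 24.9 TPM with cytokine mRNA and 78.9 ± 32.8 TPM with luciferase mRNA.

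The tissue-restricted forms of complex IV subunits were low. Cox6a2, the form of heart and skeletal muscle, was at 9.02, 19.3, 15.03, 4.24 and 1.37 TPM in cytokine mRNA tumours and at 55.2, 1.81, 18.6, 0.00 and 1.15 TPM in luciferase mRNA tumours. Cox8b, also a muscle form, was at 0.00, 20.7, 11.8, 3.95 and 0.00 TPM in cytokine mRNA tumours and at 41.9, 3.71, 8.003, 0.00 and 3.52 TPM in luciferase mRNA tumours. Both peaked in luciferase tumour 1, where the sum of 11 skeletal muscle markers was also highest, at 847 TPM. That sum was 125, 210, 273, 9 and 11 TPM in cytokine mRNA tumours and 847, 10, 417, 9 and 6 TPM in luciferase mRNA tumours, and the part of muscle tissue in these values was not tested. Cox7a1, another muscle form that is also high in brown fat, averaged 43.7 ± 18.1 TPM with cytokine mRNA and 44.9 ± 28.5 TPM with luciferase mRNA and was at 38.5 TPM in luciferase tumour 1, and the brown fat gene Ucp1 was listed at 0 in all tumours. The testis forms Cox7b2 and Cox8c were listed at 0 in all tumours, and Cox6b2 at 4.16, 5.53 and 6.85 TPM in cytokine tumours 7, 8 and 9 and at 0 elsewhere, so these 3 genes did not pass the filter.

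None of the 15 nuclear members of ATP synthase was called, and the median log2 change was -0.28. Atp5a1, the alpha subunit of the catalytic head, was at 190.1, 159, 276, 303 and 421 TPM in cytokine mRNA tumours, against 448, 475, 410.1, 444 and 476 TPM in luciferase mRNA tumours. Tumour 10 alone reached the luciferase range, and the log2 change was -0.82 ± 0.26 (SE; limma adjusted p = 0.0649). Atp5b, the beta subunit of the same head and among the most abundant nuclear members, was at 2152, 1493, 1082, 1266 and 1878 TPM in cytokine mRNA tumours and at 1424, 1860, 1760, 1664 and 1935 TPM in luciferase mRNA tumours. Its cytokine tumours lay on both sides of the luciferase range, with a log2 change of -0.17 ± 0.25 (SE; adjusted p in limma = 0.654).

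Of the smaller ATP synthase genes, Atp5e, in the central stalk, averaged 223 ± 65.1 TPM with cytokine mRNA and 336 ± 43.8 TPM with luciferase mRNA (SD, n = 5 each; limma adjusted p = 0.0952). Atp5k, at the dimer interface in the membrane, averaged 882 ± 342 TPM with cytokine mRNA and 985 ± 79.1 TPM with luciferase mRNA. Atp5g1 and Atp5g2 encode the same mature proton-carrying c subunit from separate genes. Atp5g1 was at 2.46, 3.49, 12.1, 22.7 and 22.5 TPM in cytokine mRNA tumours and at 32.0, 24.3, 10.7, 19.0 and 25.9 TPM in luciferase mRNA tumours. Atp5g2 was at 26.4, 6.69, 24.2, 17.1 and 25.1 TPM in cytokine mRNA tumours and at 9.89, 12.3, 12.5, 15.8 and 4.08 TPM in luciferase mRNA tumours. The log2 changes of Atp5g1 and Atp5g2 were -1.10 ± 0.56 and 0.78 ± 0.42 (SE), in opposite directions and neither past the test (limma adjusted p = 0.204 and 0.224). In these low genes, 11.6% and 14.8% of windows recur in other genes. The change of Atp5g1 was -0.71 without cytokine tumour 6 and -0.18 without tumours 6 and 7, while that of Atp5g2 was 1.04 without both; Atp5g2 was 0.50 without luciferase tumour 5.

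The nuclear members spread apart in cytokine tumours 6 and 7. For each tumour the SD of the log2 difference from the luciferase mean was taken over the 77 tested members. It was 1.12, 1.43, 0.57, 0.36 and 0.46 in cytokine mRNA tumours and 0.56, 0.23, 0.38, 0.47 and 0.37 in luciferase mRNA tumours. Tumour 8 lay just above the luciferase range and tumours 9 and 10 lay within it. Each luciferase tumour is part of the mean it is compared with, which makes its differences smaller. The cytokine tumours also carry any difference between the groups, so the SDs of the 2 groups are not measured alike. Tumours 6 and 7 stood out, as they did over all tested genes, where the SD was 1.35, 1.85, 1.08, 0.98 and 0.56 in cytokine mRNA tumours and 0.65, 0.44, 0.47, 0.43 and 0.57 in luciferase mRNA tumours. Across the 77 genes the deviations of the 10 pairs of cytokine mRNA tumours had Pearson correlations from -0.22 (tumours 7 and 10) to 0.72 (tumours 6 and 7), with 0.60 for tumours 8 and 9. Genes are not independent replicates, and all pairs share the luciferase mean, so no value for unrelated tumours can be set beside these. The median difference of the nuclear members was -0.39, -0.53, -0.48, -0.08 and 0.03 in cytokine mRNA tumours, against -0.05, 0.08, -0.01, -0.06 and 0.16 in luciferase mRNA tumours.

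Among genes that build or serve the chain, every call was a fall. Of 49 tested assembly factors 2 fell (4.08%), beside 3.02% of all genes tested, and none rose, with a median log2 change of -0.32. Ndufaf5, which helps to build complex I, was at 4.65, 4.84, 10.4, 9.14 and 11.5 TPM in cytokine mRNA tumours and at 15.6, 17.0, 26.1, 12.2 and 20.2 TPM in luciferase mRNA tumours, without overlap (limma adjusted p = 0.0444). Uqcc2, which helps to build complex III, averaged 77.8 ± 30.4 TPM with cytokine mRNA and 154 ± 21.4 TPM with luciferase mRNA (limma adjusted p = 0.0395). Among 7 tested subunits and carriers outside the symbol patterns, 1 fell (14.3%) and none rose, but their median log2 change was positive, at 0.26. Summed, they averaged 4141 ± 1256 TPM with cytokine mRNA and 3881 ± 269 TPM with luciferase mRNA (SD, n = 5 each), with overlap. The gene that fell was Cyc1, the cytochrome c1 subunit of complex III, at 44.0, 37.0, 52.6, 53.2 and 65.8 TPM in cytokine mRNA tumours, against 84.7, 95.0, 97.3, 82.6 and 78.2 TPM in luciferase mRNA tumours. Its groups did not overlap, and the log2 change was -0.80 ± 0.19 (SE; limma adjusted p = 0.0268).

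None of 38 tested genes for the upkeep and expression of mitochondrial DNA was called, with a median log2 change of -0.26. The most abundant of them, Rexo2, which degrades short RNA, averaged 218 ± 49.4 TPM with cytokine mRNA and 234 ± 57.3 TPM with luciferase mRNA, and Fastk, which stabilises the mt-Nd6 mRNA, averaged 71.7 ± 21.1 TPM with cytokine mRNA and 114 ± 20.4 TPM with luciferase mRNA. None of 10 regulators of mitochondrial biogenesis was called. In the citric acid cycle 1 of 18 genes fell, Idh2, a mitochondrial isocitrate dehydrogenase, at 43.7 ± 21.5 TPM with cytokine mRNA and 96.2 ± 30.6 TPM with luciferase mRNA (limma adjusted p = 0.0453). In protein import and cristae 1 of 32 fell, Phb, a prohibitin, at 16.7 ± 12.8 TPM with cytokine mRNA and 50.2 ± 18.1 TPM with luciferase mRNA (limma adjusted p = 0.0474). Of 32 mitochondrial ribosomal proteins 1 fell, Mrpl18, at 31.4 ± 9.91 TPM with cytokine mRNA and 69.4 ± 18.7 TPM with luciferase mRNA (SD, n = 5 each throughout; limma adjusted p = 0.035). The 6 calls in these lists were not stable. Each was lost without any 1 of several tumours, and under 8 (Cyc1) to 13 (Idh2) of 19 alternatives, with the sign kept in all. All 6 were lost without cytokine tumour 6 or 8 and without luciferase tumour 2, 3 or 4. These omissions, taken 1 at a time, also cut the falls over all genes tested from 378 to between 46 and 101. The share that fell was 5.56% in the citric acid cycle list. It was 3.12% in the import list and in the ribosomal list, beside 3.02% of all genes tested. No gene of these lists rose, beside 7.41% of all genes tested. Of 14 widely used normalisation genes, Actb, Gapdh and the member Sdha among them, none was called and the median was -0.48.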

How the data were processed

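Poly(A) RNA of 10 tumours was measured, 5 per group. Per the labels' protocols, total RNA was extracted with a DNase step and stranded NuGEN libraries were made. Per the submitters' processing notes, reads were aligned with STAR (version not given) to GRCh38. That build is human while the samples and symbols are mouse, so the build used is unclear, and all coordinates here come from GENCODE M21 or RefSeq in GRCm38, not from the authors' file. The authors deposited 1 table of TPM, with 22329 gene symbols and columns that each sum to 1000000. How reads were counted, and with which annotation, is not given in the labels or notes used here. Depth cannot be read from TPM, so counting errors and detection limits are unknown.

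Groups were taken from the sample titles. The 12497 genes that reached a TPM of 1 in 5 or more libraries were tested as log2(TPM + 1) with limma 3.58.1 in R 4.3.3 (eBayes with a trend, 2-sided), with Benjamini-Hochberg adjustment over all of them and calls at an adjusted p under 0.05. Fold changes on this scale understate those of low genes. The step was tested on simulated data with known changes. At a fold of 2 it found 18.2% of the 110 altered genes, and at a fold of 4 it found 60% of 90. A gene left uncalled here can therefore still differ between the groups. Fewer genes were altered in the simulation than the 1304 called in the data. The adjustment is stricter when fewer genes differ, so the shares found need not hold for the data. Replicates are taken as separate tumours from the stated 5 per group. Sums and ratios have no test, since the members were chosen as a set. Shared sequence was counted as 50-base windows of the longest coding transcript found, on either strand, in another gene's transcripts.

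Named were all tested mitochondrial genes; per nuclear complex the 3 lowest p-values, the 2 most abundant genes and the largest changes either way; tissue-restricted or stress-linked forms; and, in other lists, up to 2 called genes per direction or the 2 most abundant. Ndufb2, Atp5g3, the share of mt-Co1 and the genes named for sequence were chosen after their values were seen. Members and lists were chosen with earlier results of these data known. Micos10, Ahsp and Acta1 are not analysed here. Alternatives covered the pseudocount, filter, scaling, variance prior, quality weights, single libraries, and cytokine libraries 6 and 7 together.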

Additional observations from a re-analysis of the deposited data

Results flagged for a closer look

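Sets of 5 tumours were screened for each member named by the fixed rules, and for sums and shares, in each group. In 4 of 114 sets, 1 tumour lay far from the other 4 by Dixon's test at the 95% level, which chance gives in about 1 in 20 sets. Members not named were not screened, and sets at 0 in all 5 tumours are counted but cannot be flagged. Cytokine tumour 7 was high for mt-Nd1 as a share of the mitochondrially encoded TPM, at 19.0%, beside 13.5% to 14.6% in the other cytokine mRNA tumours. Luciferase tumour 1 was low for mt-Nd1, at 26387 TPM beside 45463 to 48905 TPM in the other luciferase mRNA tumours. The same tumour was high for the muscle form Cox8b, at 41.9 TPM beside 0.00 to 8.003 TPM. Luciferase tumour 5 was high for Cox7a2, at 2039 TPM beside 1572 to 1622 TPM.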

How the results depend on the processing

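The medians of the 7 mitochondrial and the 77 nuclear members and the log2 ratio of mitochondrial to nuclear mRNA stayed negative under every alternative run. With single tumours left out they ranged from -1.41 to -1.03, from -0.38 to -0.25 and from -1.07 to -0.62. Leaving out the mitochondrial rows before scaling moved the nuclear median to -0.50, and gives no value for the mitochondrial genes. The nuclear calls moved to 4 (Atp5a1, Ndufa3, Ndufa5 and Ndufb11, all lower). That is 5.19% of the 77 nuclear members, beside 13.8% of all 12490 genes tested there (1726 called, 901 of them lower). The number of calls changed with the tumour left out. With 1 left out, 367 to 3238 of all genes, 0 to 5 mitochondrial and 0 to 17 nuclear members were called, the highest counts without cytokine tumour 10. Quality weights called 2769 genes, 5 mitochondrial and 10 nuclear members (8 lower, 2 higher). A filter at a TPM of 5 called 1 mitochondrial member and no variance trend called 3, beside 10.1% of all genes in each; the share was 22.2% with quality weights. No filter called 846 genes and 0 nuclear members, and leaving out tumours 6 and 7 together called 20 genes and 0 members of either kind. Of 676 values of 36 named genes, 612 kept direction and side of the threshold, 10 (all Ndufa3) lost the call, 33 gained one and 21 changed sign, in 6 genes that were never called. These were, with the range over single tumours left out, Sdhb (0.11 after median-ratio scaling; -0.19 to 0.034), Cox6a2 (-0.11 to 1.34), Cox7a1 (-0.12 without mitochondrial rows; -0.26 to 0.39), Cox8b (0.32 with weights; -1.17 to 0.19), Ndufa4l2 (0.095 after median-ratio scaling, 0.30 with weights, 0.68 without tumours 6 and 7; -0.30 to 0.33) and Cox7a2l (0.015 without tumours 6 and 7). The cause was not tested. An alternative chosen after seeing the data, members with under 10% shared windows, kept both medians and the ratio within the spread between tumours. All 13 mitochondrial rows encode proteins, so restricting to those changes nothing. No paired analysis was possible because the groups share no replicate number. The unknown depth limits what a listed 0 can mean.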
